A study of Mus musculus with 32 samples.

Results

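The genes described here are 10 transcription factors and feedback regulators of the ATF4 pathway: Atf4, Ddit3, Trib3, Atf3, Atf5, Cebpb, Cebpg, Nupr1, Jdp2 and Ppp1r15a. They were matched by gene symbol in the annotation of 2 microarray platforms, and all 10 were found on both, among 22180 genes on the platform used at 48 h and 17097 on the platform used at 72 h. They were followed in CD4+ T cells cultured with macrophages, with or without antigen. The medium was full or short of 1 amino acid, and in some full-medium cultures the macrophages had been pretreated with cytokines. Values are log2 intensities, and a difference of 1 between group means is a doubling of intensity.

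ATF4 is a basic leucine zipper (bZIP) factor whose messenger RNA is translated more when the initiation factor eIF2 is phosphorylated, as by the kinase GCN2 when uncharged transfer RNA builds up under amino acid shortage. ATF4 protein then binds C/EBP-ATF composite elements, alone or with partners such as C/EBP proteins, and raises transcription of genes for amino acid transport and synthesis, of further bZIP factors, and of regulators that limit the response. Among the latter, TRIB3 is a pseudokinase that binds ATF4 and lowers its activity, and GADD34, the product of Ppp1r15a, directs a phosphatase to eIF2. The control of ATF4 is largely at translation, which arrays of messenger RNA do not measure.

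The cells came from axial and cervical lymph nodes of Balb/c mice carrying the DO11.10 T cell receptor transgene, whose receptor recognises an ovalbumin (OVA) peptide. They were cultured with thioglycollate-elicited peritoneal macrophages as presenting cells and then sorted as viable single CD4+ cells, so a few macrophages can remain among them. At 48 h, OVA was given in full medium with untreated macrophages (3 arrays), in full medium with macrophages that had been pretreated with IL-4 plus IL-10, each at 10 ng/mL, and washed (3 arrays), and in 3 media in which arginine, leucine or lysine was cut to 1% of the RPMI level (3 arrays each). Cells without OVA were measured at 48 h in low arginine (2 arrays), low leucine (3 arrays) and low lysine (3 arrays), but no such cells in full medium were among the samples. At 72 h, on the other platform, full medium alone was used: no OVA, OVA with untreated macrophages, and OVA with pretreated macrophages, with 3 arrays each. All groups share strain, transgene and the presence of macrophages. The labels do not say whether replicates were separate animals or cultures, and the p-values therefore reflect variation among these samples alone, which may be technical.

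Each 48 h member was read by 1 probe set, and 72 h members by 1 to 3, of which the brightest was used. CD4 T cell markers were high on all arrays, with group means of 10.40 to 10.93 at 48 h (8 of 10 listed genes found) and 8.71 to 9.70 at 72 h (9 of 10 found). They were not equal between groups. With OVA at 48 h, arrays ran from 10.57 to 10.66 in full medium, 10.81 to 10.98 in low arginine and 10.89 to 10.98 in low leucine. Low lysine (10.47 to 10.75) and pretreated macrophages (10.51 to 10.68) overlapped full medium. The lowest group mean at 72 h was that without OVA. The part of these shifts in the members' differences was not tested. The full-medium arrays at 48 h carry submitter identifiers from other runs of numbers than the low-medium arrays, so for every comparison across these media the medium and the run of identifiers cannot be told apart. At 72 h, 15 mesothelial and stromal markers had a mean level of 10.58 without OVA, 4.56 with OVA and 5.63 with OVA and pretreated macrophages, so the cells without OVA stood far apart in a list of genes that T cells are not known for. In such bulk samples, fewer cells of a type and less RNA per cell cannot be told apart.

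The promoter sequences of the members were searched because several of them moved together. RefSeq promoter windows (GRCm38.p6, 250 bases before to 50 after each start) were at hand for all 10 members, 13 windows in all. The core of the C/EBP-ATF composite element, TGATGNAA on either strand, lay in 4 of these windows, those of Nupr1, Atf3, Trib3 and 1 of the 3 of Jdp2, and in 3.97% of the 32851 windows in the table. A full cyclic AMP response element, TGACGTCA, was found for Ppp1r15a alone (1.79% of all windows hold it), and a C/EBP motif, TTGCNNAA, in no member window (10.8% of all windows). No pair of these motifs can match at the same position, though matches may overlap in part. In the sequences below, capitals mark these matches; the full 250 bases before the start are given for Nupr1, Atf3, Jdp2 and Ddit3, and 30 bases around the match for Trib3, where it lies just after the start. Ddit3 is shown as a member that moved in all conditions and has no match in this window. These matches are a description of letters in a fixed window, not of binding.
Nupr1, chr7:126625471-126625720, minus strand: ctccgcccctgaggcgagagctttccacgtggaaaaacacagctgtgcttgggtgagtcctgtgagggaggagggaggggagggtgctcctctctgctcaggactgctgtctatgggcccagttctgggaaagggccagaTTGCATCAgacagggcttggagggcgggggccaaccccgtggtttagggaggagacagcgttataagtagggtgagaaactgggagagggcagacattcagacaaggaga
Atf3, chr1:191183334-191183583, minus strand: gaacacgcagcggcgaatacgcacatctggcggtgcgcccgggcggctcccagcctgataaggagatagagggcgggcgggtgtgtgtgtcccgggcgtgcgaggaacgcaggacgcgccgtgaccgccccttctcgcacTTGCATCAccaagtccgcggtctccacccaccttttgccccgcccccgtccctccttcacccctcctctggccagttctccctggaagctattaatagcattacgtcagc
Jdp2, chr12:85599166-85599415, plus strand: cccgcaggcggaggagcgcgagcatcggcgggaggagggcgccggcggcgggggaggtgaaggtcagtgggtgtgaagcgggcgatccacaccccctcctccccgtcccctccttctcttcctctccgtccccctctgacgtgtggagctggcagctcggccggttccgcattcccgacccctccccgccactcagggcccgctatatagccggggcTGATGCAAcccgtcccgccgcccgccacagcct
Trib3 element, chr2:152344028-152344057, minus strand: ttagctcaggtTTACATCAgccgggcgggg
Ddit3, chr10:127290543-127290792, plus strand: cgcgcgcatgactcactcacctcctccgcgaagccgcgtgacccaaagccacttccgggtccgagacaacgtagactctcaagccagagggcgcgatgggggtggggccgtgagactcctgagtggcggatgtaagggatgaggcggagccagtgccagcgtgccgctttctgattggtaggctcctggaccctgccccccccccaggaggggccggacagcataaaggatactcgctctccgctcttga

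**Figure D1:**
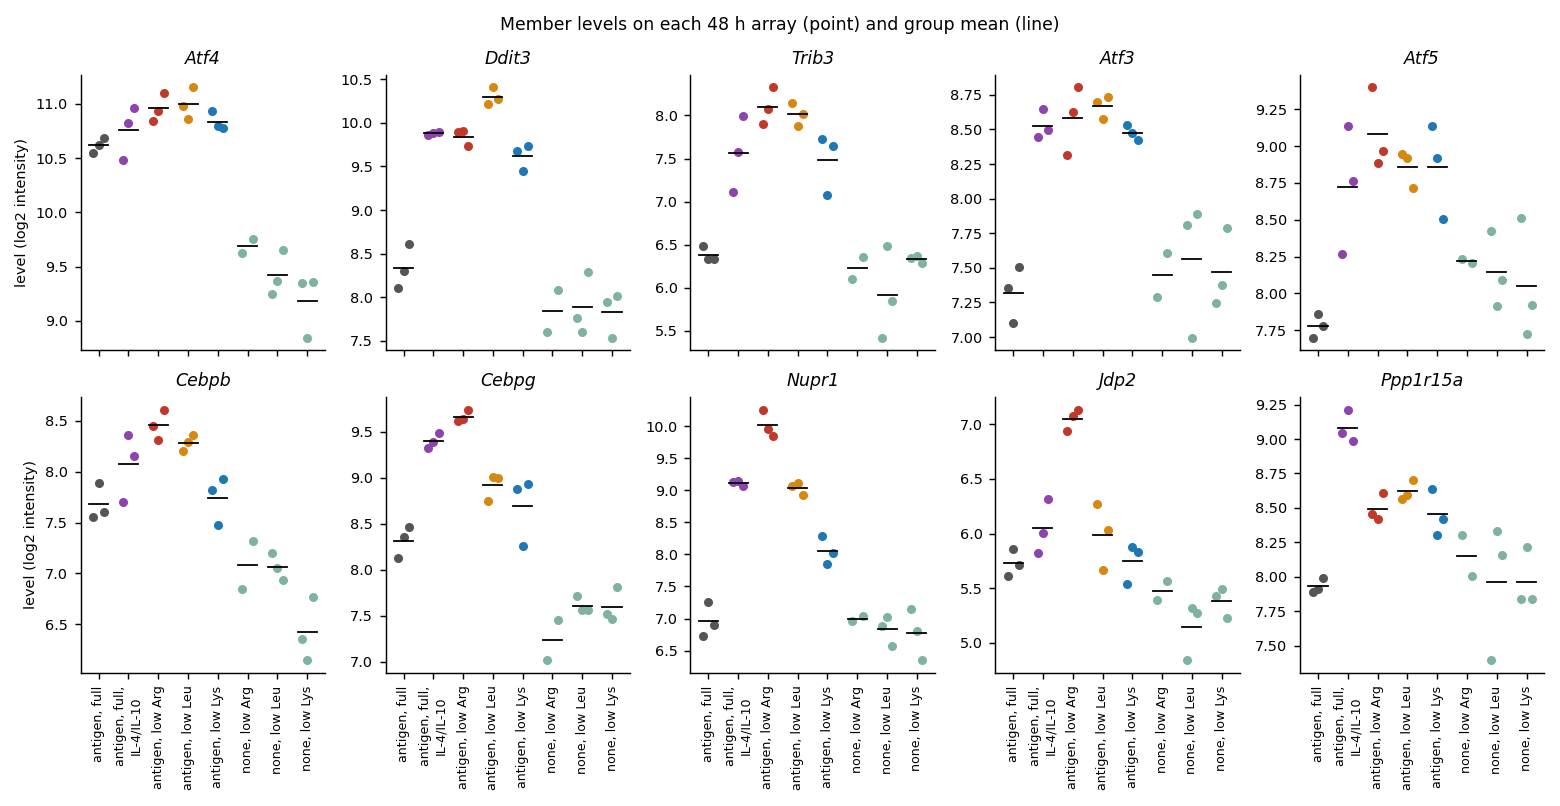
Level of each member (log2 intensity, vertical axis) on every 48 h array, by group on the horizontal axis; each point is 1 array, each line a group mean, and each panel has its own axis. The 3 full-medium arrays with OVA lie below all other OVA arrays for Ddit3, Trib3, Atf3, Atf5 and Nupr1, and Atf4 separates the arrays with OVA from those without.

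The first question was whether T cells responding to OVA carried more of these transcripts when an amino acid was short or the macrophages had been pretreated. Against OVA in full medium at 48 h, 7 of 10 members rose with pretreated macrophages, 8 with low arginine, 7 with low leucine and 5 with low lysine, and none fell in any of them (limma, Benjamini-Hochberg adjusted over all genes). Of all genes tested, 2.71%, 1.51%, 1.15% and 2.49% rose and 5.93%, 3.17%, 1.56% and 6.24% fell in the same 4 comparisons. The arrays of 7, 10, 9 and 7 members did not overlap between condition and control, as for 25.7%, 27.6%, 23.3% and 29.2% of all genes. The median difference over the members was 1.12, 1.31, 0.88 and 0.80, against 0.01, 0.01, 0.00 and 0.02 over all genes. Ddit3, Trib3, Atf3, Atf5 and Nupr1 rose in all 4 conditions. These comparisons share the 3 full-medium control arrays and are given side by side, not as separate support for each other.

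Atf4 itself differed little. It stood at 10.54, 10.62 and 10.69 in full medium, at 10.84, 10.93 and 11.10 in low arginine, at 10.98, 10.85 and 11.15 in low leucine, at 10.93, 10.80 and 10.78 in low lysine and at 10.48, 10.83 and 10.96 with pretreated macrophages. All 9 low-medium arrays lay above the full-medium ones, and the pretreated arrays overlapped them. The differences of 0.34, 0.38, 0.22 and 0.14 (SE 0.14 each) did not pass (limma adjusted p = 0.204, 0.21, 0.356 and 0.683).

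Ddit3 encodes CHOP, a C/EBP-family factor that pairs with other bZIP proteins and is known for stress-induced cell death. It stood at 8.10, 8.30 and 8.62 in full medium, against 9.89, 9.90 and 9.73 in low arginine, 10.21, 10.41 and 10.27 in low leucine, 9.67, 9.44 and 9.74 in low lysine, and 9.86, 9.88 and 9.90 with pretreated macrophages. Every array of the 4 conditions was above every full-medium array, and low leucine was the highest group, with no overlap with the next. The rise was 1.50 ± 0.17 (SE) in low arginine (limma adjusted p = 6.45e-06), 1.96 ± 0.17 in low leucine (1.21e-07), 1.28 ± 0.17 in low lysine (6.53e-05) and 1.54 ± 0.17 with pretreated macrophages (4.19e-06).

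Atf3, a stress-induced bZIP factor that can repress its targets, rose by nearly the same amount in every condition. Its full-medium levels were 7.35, 7.10 and 7.51, and those in the 4 conditions ran from 8.31 to 8.81, with group means of 8.48 to 8.67 whose arrays overlapped from each group to the next. The differences were 1.26 ± 0.19 for low arginine, 1.35 ± 0.19 for low leucine, 1.16 ± 0.19 for low lysine and 1.21 ± 0.19 for pretreated macrophages (limma adjusted p = 0.000233, 0.000113, 0.000666 and 0.000284). Atf5, a bZIP factor known for the mitochondrial unfolded protein response and, like Atf4, translated more under eIF2 phosphorylation, stood at 7.70, 7.86 and 7.78 in full medium and rose by 1.30 ± 0.21, 1.08 ± 0.21, 1.08 ± 0.21 and 0.94 ± 0.21 in the same order (limma adjusted p = 0.000558, 0.00396, 0.00298 and 0.00601). Its pretreated arrays were widely spread, at 8.27, 9.14 and 8.76, and without the second of them the difference was 0.74 and the limma adjusted p 0.0524.

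Cebpg, a C/EBP protein without an activation domain that pairs with ATF4, rose most in low arginine and with pretreated macrophages. It stood at 8.12, 8.35 and 8.46 in full medium, at 9.62, 9.64 and 9.74 in low arginine and at 9.32, 9.39 and 9.49 with pretreated macrophages, rises of 1.35 ± 0.16 and 1.09 ± 0.16 (limma adjusted p = 1.07e-05 and 0.000128). In low leucine it stood at 8.75, 9.01 and 9.0, a rise of 0.60 ± 0.16 (limma adjusted p = 0.0395) that did not hold in 5 of the 6 single-array omissions (without full-medium replicate 1, 2 or 3 or low-leucine replicate 2 or 3, with limma adjusted p between 0.061 and 0.201). The call was also lost with arrays centred (0.0773, limma). In low lysine it stood at 8.88, 8.25 and 8.93, overlapping full medium, with a difference of 0.38 ± 0.16 (limma adjusted p = 0.146). Without low-lysine replicate 2, the low array, that difference was 0.59 and passed (limma adjusted p = 0.0234), as it did under quantile normalization (0.60, adjusted p = 0.0191).

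Cebpb, a C/EBP activator that also binds composite elements with ATF4, and Jdp2, a bZIP repressor of the AP-1 and ATF family, passed the test in low arginine alone of the 4 conditions. Cebpb stood at 8.45, 8.31 and 8.61 in low arginine against 7.56, 7.89 and 7.60 in full medium, a rise of 0.77 ± 0.18 (limma adjusted p = 0.013). Leaving out full-medium replicate 1 or 3 or low-arginine replicate 3 brought its limma adjusted p to 0.068, 0.0631 or 0.0696, and low arginine and low leucine differed in it by 0.17 ± 0.18 (0.906). In low leucine Cebpb ran from 8.20 to 8.36, also above every full-medium array. Its arrays in low lysine (7.48 to 7.93) and with pretreated macrophages (7.70 to 8.36) overlapped full medium. Jdp2 stood at 6.94, 7.07 and 7.13 in low arginine and at 5.61, 5.86 and 5.71 in full medium, a rise of 1.32 ± 0.17 (limma adjusted p = 2.9e-05). Its arrays in the other 3 conditions, from 5.54 to 6.32, overlapped full medium, with differences of 0.02 to 0.32. Outside low arginine Jdp2 was a dim gene. Its means in full medium (5.73) and low lysine (5.75) lay next to the median level of all genes on this platform, 5.71.

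Trib3, the pseudokinase that holds ATF4 back, stood at 6.49, 6.33 and 6.33 in full medium. Its levels were 7.90, 8.07 and 8.33 in low arginine, 8.14, 7.88 and 8.02 in low leucine, 7.73, 7.08 and 7.64 in low lysine, and 7.12, 7.58 and 8.00 with pretreated macrophages. Full medium lay below all of them, while the pretreated group overlapped all 3 low media. Trib3 rose by 1.72 ± 0.22, 1.63 ± 0.22, 1.10 ± 0.22 and 1.18 ± 0.22 in low arginine, low leucine, low lysine and with pretreated macrophages (limma adjusted p = 4.52e-05, 8.91e-05, 0.00379 and 0.00158).

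Ppp1r15a, whose product GADD34 leads the phosphatase that restores translation, had another order. Its highest group was that with pretreated macrophages, at 9.04, 9.21 and 8.99 against 7.89, 7.91 and 7.99 in full medium, a rise of 1.15 ± 0.17 (limma adjusted p = 0.000186). It stood at 8.46, 8.42 and 8.60 in low arginine, at 8.57, 8.59 and 8.70 in low leucine and at 8.64, 8.30 and 8.42 in low lysine, all above full medium. Those differences were 0.56 ± 0.17, 0.69 ± 0.17 and 0.52 ± 0.17 (limma adjusted p = 0.0683, 0.0308 and 0.0631). Those in low arginine and low lysine passed under quantile normalization (0.023 and 0.00919, limma) and with dim genes left out (0.0432 and 0.0435). The call in low leucine did not hold without any 1 of the 6 arrays compared (limma adjusted p between 0.0779 and 0.129), nor with arrays centred (0.0549).

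Nupr1, a small stress-induced chromatin-associated protein, had the largest difference of the members in low arginine, in low leucine and with pretreated macrophages, but not in low lysine, where Ddit3, Atf3 and Trib3 exceeded it. On the full-medium arrays it stood at 6.72, 7.26 and 6.90. It stood at 10.26, 9.95 and 9.85 in low arginine, at 9.07, 9.11 and 8.92 in low leucine, at 8.29, 7.85 and 8.02 in low lysine, and at 9.13, 9.15 and 9.06 with pretreated macrophages. No array of any of the 4 conditions reached down to the full-medium range, and the arginine, leucine and lysine arrays did not overlap each other. The difference was 3.06 ± 0.18 (SE, limma adjusted p = 1.65e-10) in low arginine, an 8.33-fold rise. It was 2.07 ± 0.18 (1.13e-07) in low leucine, 1.09 ± 0.18 (0.00062) in low lysine and 2.15 ± 0.18 (4.36e-08) with pretreated macrophages, all from limma.

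**Figure D2:**
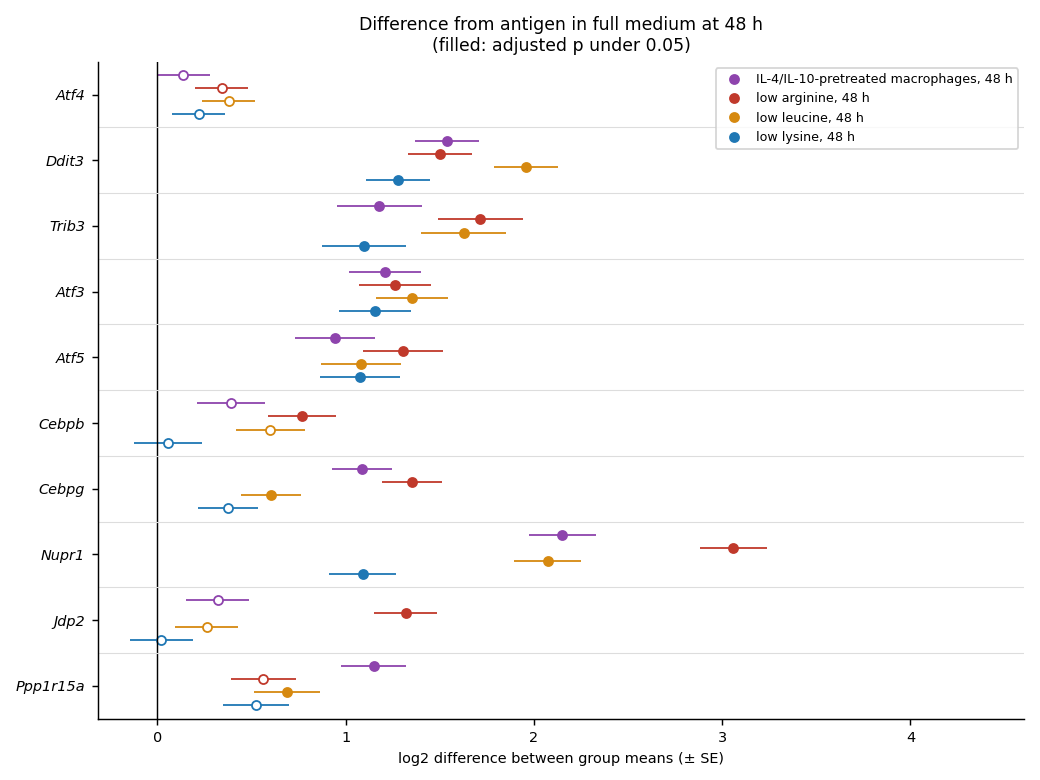
Difference of each member from OVA in full medium at 48 h, with points at the log2 difference between group means, bars of 1 standard error and filled points for an adjusted p under 0.05. Nupr1 in low arginine, at 3.06, stands farthest to the right, and Atf4 has open points in all 4 conditions.

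Marker genes of other cells were read beside these differences. In the low media, none of 15 macrophage markers rose against full medium, and 1 fell, in low leucine; the mean of the list per array ran from 6.19 to 6.78 in the 3 low media and from 6.61 to 6.69 in full medium. With pretreated macrophages 6 of 15 rose, among them Cd68 by 1.11, and the list stood at 7.01 to 7.46. A list of 10 alternatively activated macrophage genes stood at 6.48 to 7.01 with pretreated macrophages and at 5.33 to 5.48 in full medium, with 5 of 10 higher by the test. The part of these macrophage transcripts in the members' rise with pretreated macrophages was not tested. Of 6 dendritic cell markers 2 rose and none fell with pretreated macrophages, of 7 granulocyte and mast cell markers none did either, and of 6 CD8 T and NK cell markers 1 rose and 1 fell. The CD8 T and NK cell list stood at 5.66 to 5.70 in low arginine, where Cd8a (-0.80) and Eomes (-1.42) fell, and at 5.65 to 5.77 in low leucine, where Eomes (-1.85) fell, both below the 6.11 to 6.23 of full medium. In low lysine it stood at 6.06 to 6.24, with Cd8b1 higher (0.50) and Eomes lower (-0.96). The part of these markers in the members' values was not tested. B cell markers were higher in low lysine (3 of 5, with array means of 6.41 to 7.64) than in full medium (6.25 to 6.41), and their part in the low-lysine values was not tested.

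The low media were then compared with each other, within OVA-treated cells. Low arginine exceeded low leucine in 3 members (0.234% of all genes were higher there) and low lysine in 4 (2.65%), and low leucine exceeded low lysine in 2 (1.59%). No member was lower by the test in the first-named medium, where 0.478%, 0.577% and 0.289% of all genes were. Nupr1 was higher in low arginine than in low leucine by 0.98 ± 0.18 (limma adjusted p = 0.00724) and than in low lysine by 1.97 ± 0.18 (3.36e-06), and higher in low leucine than in low lysine by 0.98 ± 0.18 (0.0056, limma). Jdp2 was higher in low arginine by 1.06 ± 0.17 against low leucine (limma adjusted p = 0.00311) and by 1.30 ± 0.17 against low lysine (0.000121). Cebpg was higher in low arginine by 0.75 ± 0.16 and 0.98 ± 0.16 (limma adjusted p = 0.0247 and 0.00127), and Cebpb was higher than in low lysine by 0.71 ± 0.18 (0.029). Ddit3 was higher in low leucine than in low lysine by 0.68 ± 0.17 (limma adjusted p = 0.0386), and its difference between low arginine and low leucine, at -0.46 ± 0.17, did not pass (0.304).

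The submitter identifiers of the low-medium arrays fall into 3 runs, each holding 1 OVA array of each medium. Within the 3 runs, Nupr1 in low arginine exceeded low leucine by 1.18, 0.84 and 0.93 and low lysine by 2.41, 1.94 and 1.56. Jdp2 exceeded low leucine by 0.67, 1.40 and 1.10, and Cebpg did so by 0.87, 0.63 and 0.74, so that the order of these media was the same in every run. Several of the smaller calls rested on single arrays or on the scale. The Cebpg call against low leucine was lost without any 1 of the 6 arrays (limma adjusted p between 0.069 and 0.153), with arrays centred (0.0662) and with the run as a block (0.0622), that of Nupr1 without low-arginine replicate 1 (0.0684), and both calls of low leucine against low lysine were lost under quantile normalization, with limma adjusted p of 0.109 for Ddit3 and 0.0814 for Nupr1. The Cebpb call of low arginine against low lysine was lost without any low-arginine array or low-lysine replicate 1 or 2 (0.0515 to 0.169, limma) and under quantile normalization (0.136), and that of Ddit3 without any low-leucine array or low-lysine replicate 1 or 2 (0.0817 to 0.183).

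Pretreated macrophages were also set against each low medium. Against low arginine, Nupr1 and Jdp2 were lower, by -0.91 ± 0.18 and -1.0 ± 0.17 (limma adjusted p = 0.00474 and 0.00134), where 1.85% of all genes were lower, and no member was higher (1.52% of all genes), although Ppp1r15a, at 0.59 ± 0.17 (limma adjusted p = 0.0696), passed under quantile normalization (0.0458) and with dim genes left out (0.0447). Against low leucine, where 5.92% of all genes differed, no member passed by limma, with 3 at an unadjusted p under 0.05. Against low lysine, 3 members were higher, where 2.78% of all genes were, and none was lower (0.757% of all genes): Nupr1 by 1.06 ± 0.18, Cebpg by 0.71 ± 0.16 and Ppp1r15a by 0.63 ± 0.17 (limma adjusted p = 0.000836, 0.0113 and 0.0462). The Ppp1r15a difference missed the threshold with arrays centred, under quantile normalization and without any of 5 of the 6 arrays, namely each pretreated array and low-lysine replicates 2 and 3 (limma adjusted p between 0.0504 and 0.169), and that of Cebpg without pretreated replicate 3 or low-lysine replicate 2 (0.0531 and 0.0878). With pretreated macrophages, 5, 8 and 8 of 15 macrophage markers were higher than in low arginine, leucine and lysine, and 3 of 5 B cell markers were lower than in low lysine (Cd79b by -1.25, Ms4a1 by -1.03 and Ighm by -0.70). Their part in these differences was not tested.

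The second question, which only the low media allow at 48 h, was how far the levels depended on OVA. Adding OVA raised 9 of 10 members in low arginine, 10 in low leucine and 9 in low lysine, where 17.2%, 21.8% and 18.4% of all genes rose. None of the members fell, against 12.2%, 19.5% and 12.6% of all genes. The groups with and without OVA did not overlap for 10, 10 and 9 members, and for 60.1%, 51% and 40.9% of all genes. Their median difference was 1.47, 1.26 and 1.12, against -0.12, -0.13 and -0.09 over all genes. Atf4, whose differences from full medium had missed the threshold, stood at 9.63 and 9.75 in low arginine, 9.25, 9.37 and 9.66 in low leucine and 9.35, 8.85 and 9.35 in low lysine without OVA, below every OVA array. Its rise with OVA was 1.27 ± 0.16, 1.57 ± 0.14 and 1.65 ± 0.14 (limma adjusted p = 1.48e-06, 7.95e-09 and 4.48e-09).

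Nupr1 without OVA stood at 6.96 and 7.04 in low arginine, 6.89, 7.03 and 6.57 in low leucine and 7.14, 6.81 and 6.35 in low lysine. These levels overlapped those of OVA in full medium (6.72 to 7.26), a comparison in which both medium and antigen differ. With OVA it rose by 3.02 ± 0.20, 2.21 ± 0.18 and 1.28 ± 0.18 in low arginine, leucine and lysine (limma adjusted p = 9.76e-11, 1.57e-09 and 5.38e-06). Low arginine again stood first and low lysine last. Cebpg without OVA stood at 7.01 and 7.45, at 7.72, 7.56 and 7.56, and at 7.52, 7.46 and 7.81 in the same media, and rose by 2.43 ± 0.18, 1.31 ± 0.16 and 1.09 ± 0.16 (limma adjusted p = 5.83e-10, 6.78e-07 and 1.07e-05). In no medium did an array without OVA reach one with it, for either gene. Trib3 without OVA ran from 5.42 to 6.49 over the 8 arrays, reaching no OVA array of a low medium, and rose by 1.87 ± 0.25, 2.10 ± 0.22 and 1.15 ± 0.22 (limma adjusted p = 4.54e-06, 1.13e-07 and 0.000364). Ddit3 ran from 7.54 to 8.29 and rose by 2.00, 2.41 and 1.78 (limma adjusted p = 3.31e-08, 1.84e-10 and 2.42e-08).

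Of the other members, Cebpb rose by 1.37, 1.22 and 1.32 and Atf3 by 1.13, 1.11 and 1.01 in low arginine, leucine and lysine. Jdp2 rose by 1.57 ± 0.19 and 0.84 ± 0.17 in low arginine and leucine, and its difference in low lysine, 0.37 ± 0.17, did not pass (limma adjusted p = 0.0991) except with arrays centred (0.51, adjusted p = 0.0308) and under quantile normalization (0.55, adjusted p = 0.0157). Ppp1r15a rose by 0.66 ± 0.17 and 0.49 ± 0.17 in low leucine and lysine, with 0.34 ± 0.19 in low arginine short of the threshold (limma adjusted p = 0.00417, 0.0348 and 0.19). The call in low lysine was lost without replicate 1 or 3 of either group (0.0702 to 0.126, limma). Atf5 rose by 0.86 ± 0.24, 0.72 ± 0.21 and 0.80 ± 0.21 (limma adjusted p = 0.00831, 0.0097 and 0.00575). Array medians over the genes tested were lower with OVA by -0.18, -0.18 and -0.14 in the 3 media. Quantile normalization took the Atf5 differences to 0.33, 0.15 and 0.31, none past the threshold (limma adjusted p = 0.449, 0.689 and 0.391). It took those of Ppp1r15a in low leucine and lysine to 0.13 and 0.02, and in low arginine to -0.16. It also lowered, with the calls kept, Atf3 to 0.65, 0.58 and 0.57, Cebpg in low leucine and lysine to 0.76 and 0.62 and Cebpb in low leucine to 0.75. Without either of the 2 low-arginine arrays lacking OVA, the Atf5 call in low arginine was lost (0.0537 and 0.0532, limma).

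Whether the effect of OVA differed between the 3 media was tested as an interaction. It did for 2 of 10 members, Nupr1 (moderated F = 21.45, limma adjusted p = 0.0156) and Cebpg (F = 17.63, adjusted p = 0.0297), where 0.149% of all genes passed; Jdp2 had F = 11.56 (adjusted p = 0.0893). The rise of Nupr1 was larger in low arginine than in low lysine by 1.74 ± 0.27 (limma adjusted p = 0.00615), and that of Cebpg by 1.34 ± 0.24 (0.0177). The differences between low arginine and low leucine, 0.81 ± 0.27 for Nupr1 and 1.12 ± 0.24 for Cebpg, did not pass (limma adjusted p = 0.495 and 0.134), nor did those between low leucine and low lysine (0.206 and 0.843). The interaction of Nupr1 did not hold without either of the 2 low-arginine arrays lacking OVA (limma adjusted p = 0.083 and 0.0549), and that of Cebpg without any of low-arginine OVA replicates 1, 2 and 3, low-leucine OVA replicate 3, low-arginine replicate 1 without OVA and low-lysine replicates 1 and 3 without OVA (0.0508 to 0.275). Between the low media without OVA, no member differed by limma in any of the 3 pairs, with 1, 2 and 1 members at an unadjusted p under 0.05; of all genes, 0%, 0.00451% and 0.00902% passed.

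The arrays without OVA also carried more macrophage transcripts. The mean of the 15 macrophage markers ran from 7.12 to 7.54 without OVA and from 6.19 to 6.78 with it in the low media, with 9, 12 and 8 of 15 lower with OVA in low arginine, leucine and lysine. Of 14 mesothelial and stromal markers found, 5, 9 and 2 were lower with OVA. Their part in the members' differences was not tested.

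**Figure D3:**
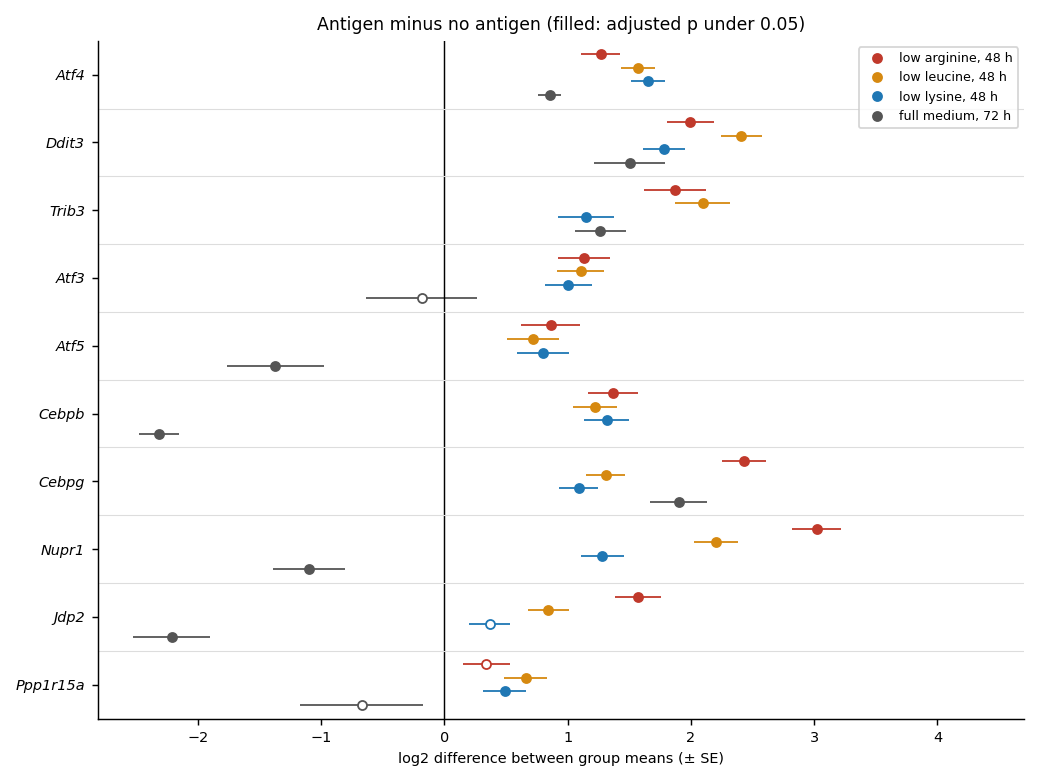
Difference between cells with and without OVA for each member in the 3 low media at 48 h and in full medium at 72 h, with points at the log2 difference between group means, bars of 1 standard error and filled points for an adjusted p under 0.05. Atf5, Cebpb, Nupr1 and Jdp2 have 72 h points left of 0, between -1.10 and -2.31.

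At 72 h in full medium the members split. With untreated macrophages, OVA raised 4 of 10 (20.7% of all genes rose) and lowered 4 (17.4% fell). Atf4 stood at 10.33, 10.30 and 10.41 without OVA and at 11.31, 11.22 and 11.07 with it, a rise of 0.85 ± 0.10 (limma adjusted p = 3.35e-05). Cebpg stood at 6.38, 7.27 and 6.87 against 8.87, 8.65 and 8.70 and rose by 1.90 ± 0.23 (6.19e-05, limma), and Ddit3 and Trib3 rose by 1.50 ± 0.29 and 1.27 ± 0.21 (limma adjusted p = 0.00156 and 0.000537). In each of these the groups did not overlap. For Atf4 a second probe set gave a difference of 0.32, and for Cebpg 2 others gave 1.54 and 0.88. That second Atf4 set was dim, with means of 2.71 without OVA and 3.03 with it, below the array medians of 3.87 to 4.04.

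Cebpb and Jdp2 fell most. Cebpb stood at 11.43, 11.30 and 11.19 without OVA and at 9.16, 8.88 and 8.94 with it, and fell by 2.31 ± 0.16 (limma adjusted p = 1.28e-06). Of its 2 other probe sets, 1 gave -2.27 and the other -0.13. The latter was dim, at 3.74 without OVA and 3.61 with it. Jdp2 stood at 6.89, 7.36 and 6.97 without OVA and at 5.19, 4.08 and 5.31 with it, and fell by 2.21 ± 0.31 (limma adjusted p = 0.00017). Atf5 fell by 1.37 ± 0.39 and Nupr1 by 1.10 ± 0.29 (limma adjusted p = 0.0166 and 0.0107), from 7.36, 7.91 and 7.47 to 6.23, 7.09 and 6.12 for Nupr1. Over the genes tested, with 1 probe set each, array medians were lower with OVA by -0.51. Over all probe sets of this platform, array medians lay between 3.87 and 4.04. Relative to the medians over genes, Nupr1 differed by -0.59 and did not pass (limma adjusted p = 0.0848), Atf5 differed by -0.86, and Atf4 rose by 1.36. The Atf5 call was lost without replicate 1 or 2 lacking OVA or replicate 2 with OVA (0.0671, 0.054 and 0.0637).

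Marker lists moved in the same direction as these 4 members. All 15 mesothelial and stromal markers fell with OVA at 72 h, with a median of -6.71, and 9 of 15 macrophage markers fell, from list means of 5.27 to 7.32 per array without OVA to 4.03 to 4.08 with it. The part of other cells in the fall of Cebpb, Jdp2, Atf5 and Nupr1 was not tested. The CD4 T cell list was higher with OVA (9.36 to 9.89 per array) than without (8.60 to 8.79). Its part in the rise of Atf4, Cebpg, Ddit3 and Trib3 was not tested either. Atf3 and Ppp1r15a were spread widely within the group lacking OVA, at 4.96, 6.65 and 6.74 and at 9.04, 7.67 and 7.10, and their differences of -0.18 ± 0.45 and -0.67 ± 0.50 did not pass (limma adjusted p = 0.799 and 0.341), the former being 0.33 with arrays centred.

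Pretreating the macrophages raised 9 of 10 members at 72 h, where 3.78% of all genes rose, and none fell (5.91% of all genes). For all 10 members the groups did not overlap, as for 26.5% of all genes. The median difference was 1.56 over the members and 0.02 over all genes. Nupr1 stood at 9.78, 10.64 and 10.31 with pretreated macrophages, 13.6-fold above untreated ones, a rise of 3.76 ± 0.29 (limma adjusted p = 7.96e-05). Atf5 went from 6.62, 5.31 and 6.29 to 9.56, 8.31 and 9.14, a rise of 2.93 ± 0.39 (limma adjusted p = 0.00181). Atf3 went from 6.65, 5.50 and 5.65 to 8.31, 8.47 and 8.75, a rise of 2.58 ± 0.45 (limma adjusted p = 0.00658).

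Trib3 went from 7.22, 7.04 and 6.62 to 9.36, 9.68 and 9.41 and rose by 2.52 ± 0.21 (limma adjusted p = 9.43e-05). The pretreated group was the highest for all 4 of these genes, above the cells without OVA as well. Ddit3 stood at 9.74, 10.56 and 10.51 against 9.43, 8.35 and 8.77 and rose by 1.42 ± 0.29 (limma adjusted p = 0.0132), which did not hold without replicate 3 of either group (0.0626 and 0.0731). Cebpb rose by 1.52 ± 0.16, Cebpg by 1.33 ± 0.23 and Jdp2 by 1.28 ± 0.31 (limma adjusted p = 0.000454, 0.00658 and 0.0267), the last not without any 1 of the pretreated arrays (0.0537 to 0.0871, limma). The other probe sets gave 1.57 and 0.20 for Cebpb and 0.90 and 0.31 for Cebpg. The Cebpb set with 0.20 was the dim one, at 3.61 and 3.81 with untreated and pretreated macrophages. Cebpb and Jdp2 remained below their levels without OVA, by -0.79 ± 0.16 and -0.93 ± 0.31 (limma adjusted p = 0.00292 and 0.04). With arrays centred these were -0.35 and -0.49 and did not pass (0.0593 and 0.136, limma). The Jdp2 call was also lost without any 1 of the arrays lacking OVA, or without pretreated replicate 1 or 3 (0.0591 to 0.133, limma). The mesothelial and stromal list stood at 10.58 without OVA and 5.63 with pretreated macrophages, and its part in these differences was not tested.

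Atf4 rose by 0.58 ± 0.10 with pretreated macrophages (limma adjusted p = 0.00561), to 11.64, 11.81 and 11.88, above every untreated array. A second Atf4 probe set gave -0.03, and with the mean of both the difference was 0.27 and did not pass (limma adjusted p = 0.248). This second set was dim, at 3.03 and 3.00 with untreated and pretreated macrophages, below the array medians of 3.87 to 4.04. At that level it can say little about a change. Ppp1r15a stood at 9.65, 8.15 and 8.76 against 7.84, 6.69 and 7.27, a difference of 1.59 ± 0.50 that fell short of the threshold (limma adjusted p = 0.0725). It passed with arrays centred (1.52, limma adjusted p = 0.0384), with dim genes left out (0.0491) and without pretreated replicate 2 (1.94, 0.035). Of the other alternatives, it passed only with replicate number as a block (0.00802, limma). That pairing rests on correlations of same-numbered arrays in these same data (0.16 to 0.261), as no label says what a number marks. The block also took in the arrays without OVA. Their same-numbered correlations were -0.224 to 0.15 with untreated and -0.0118 to 0.471 with pretreated OVA arrays. Cells on pretreated macrophages against cells without OVA had 7 members higher (16.9% of all genes) and 2 lower (15.6%), with Trib3 at 3.79 ± 0.21, Cebpg at 3.23 ± 0.23, Ddit3 at 2.92 ± 0.29 and Nupr1 at 2.66 ± 0.29. At 72 h, 1 of 15 macrophage markers was higher with pretreated macrophages, and the list stood at 4.30 to 4.48 against 4.03 to 4.08; 3 of 15 mesothelial and stromal markers were higher and 1 lower, with array means of 4.85 to 6.83 against 4.41 to 4.83. Their part in the members' rise was not tested, nor that of the higher mesothelial and stromal level without OVA in the comparison with those cells.

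**Figure D4:**
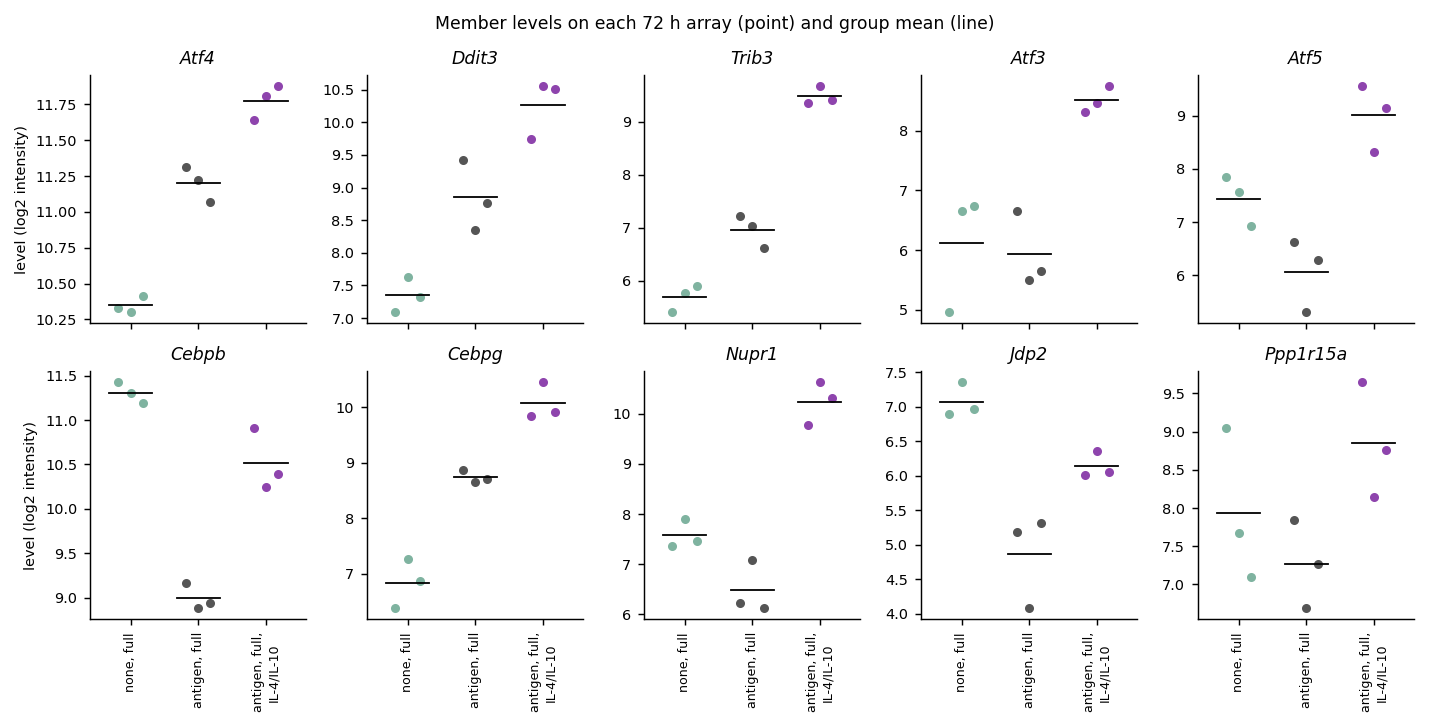
Level of each member (log2 intensity, vertical axis) on every 72 h array, by group on the horizontal axis; each point is 1 array, each line a group mean, and each panel has its own axis. The pretreated group lies highest for 8 of the 10 members, while Cebpb and Jdp2 are highest without OVA.

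The pathway around the members was read from 4 lists. With pretreated macrophages and in low arginine, leucine and lysine at 48 h, 2.71%, 1.51%, 1.15% and 2.49% of all genes rose against full medium. In the same order, 5.93%, 3.17%, 1.56% and 6.24% fell. Of 30 ATF4 target genes outside the members, mostly for amino acid transport and synthesis, 13 rose at 48 h with pretreated macrophages, 13 in low arginine, 11 in low leucine and 11 in low lysine, none fell, and the medians were 0.52, 0.57, 0.48 and 0.41. Cth, which makes cysteine, rose by 2.44, 2.39, 1.88 and 1.85 and Slc7a3, a cationic amino acid transporter, by 1.83, 2.22, 2.10 and 2.22 in that order. Slc7a11, the cystine transporter, was higher in low arginine than in low leucine by 1.21 ± 0.18 (limma adjusted p = 0.00246) and than in low lysine by 0.72 ± 0.18 (0.0304). Adding OVA raised 28, 27 and 26 of the 30 in low arginine, leucine and lysine and 23 of 29 at 72 h, with 1, 1, 0 and 2 lower. Of all genes, 17.2%, 21.8%, 18.4% and 20.7% rose there and 12.2%, 19.5%, 12.6% and 17.4% fell. Asns, asparagine synthetase, rose by 3.64, 3.56 and 3.79 with OVA in the low media.

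Of 12 genes for eIF2 kinases, eIF2 phosphatase partners and subunits of eIF2B, none rose against full medium at 48 h, and 4, 2, 1 and 2 fell with pretreated macrophages and in low arginine, leucine and lysine. Eif2ak2, the double-stranded RNA-activated kinase PKR, fell in all 4, by 0.85, 0.80, 0.72 and 0.89. Of 15 endoplasmic reticulum chaperones and folding factors, 3 rose and 8 fell with pretreated macrophages and 2 rose and 7 fell in low arginine, against 1 and 1 in low leucine and 2 and 2 in low lysine. Sdf2l1, a chaperone cofactor, fell by 1.51, 1.24, 0.90 and 0.97 in the 4 conditions, while Herpud1, a protein of endoplasmic reticulum-associated degradation, rose by 0.69 with pretreated macrophages and 1.03 in low arginine. At 72 h, Sdf2l1 fell by 1.73 and Herpud1 rose by 1.33 with pretreated macrophages.

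Among 29 other bZIP and Tribbles genes, 1, 3, 4 and 2 rose and 2, 1, 2 and 2 fell in the same 4 conditions at 48 h, with medians of 0.19, 0.09, 0.03 and -0.06. Of all genes, 2.71%, 1.51%, 1.15% and 2.49% rose there and 5.93%, 3.17%, 1.56% and 6.24% fell. Trib2, a relative of Trib3, rose by 0.92 in low arginine and 0.80 in low leucine, and Atf6, a sensor of unfolded proteins, by 0.59, 1.04 and 1.00 in low arginine, leucine and lysine. Fosl2, an AP-1 protein, rose by 1.06 in low leucine and was 1.46 ± 0.19 higher there than in low lysine (limma adjusted p = 0.000238).

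Over the 15 arrays with OVA at 48 h, which share platform and groups, the members' levels went together to different degrees. Pearson correlations ran from 0.16 for Jdp2 with Ppp1r15a to 0.93 for Ddit3 with Atf3. By Spearman rank correlation, Ddit3 with Atf3 had 0.65, below Nupr1 with Cebpg (0.90) and Atf4 with Trib3 (0.89). Levels were not adjusted for group, so all these correlations include the differences between groups described above. Nupr1 and Cebpg had r = 0.91, and Atf4 was nearest to Trib3, at 0.82. Of 13058 genes compared, those closest to Nupr1 were Trp53inp1 (r = 0.97), Prrg4 (0.95) and D16Ertd472e (0.94), and to Cebpg Krit1 (0.96), Snhg12 (0.96) and Bcl2 (0.91). Slc3a2, the heavy chain of several amino acid transporters, was among the closest 3 genes of Ddit3 (0.94), Trib3 (0.93) and Atf3 (0.94). Jdp2 was closest to Tfdp2 (0.95), Ppp1r15a to Zfp827 (0.94) and Atf4 to Gstp3 (0.89). Atf5 was closest to Hspb7 (0.90) and Cebpb to Rps19 (0.94).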

How the data were processed

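Total RNA of sorted CD4+ T cells was hybridised to Affymetrix Mouse Gene 2.0 ST arrays at 48 h (23 arrays, 41345 probe sets) and HT MG-430 PM arrays at 72 h (9 arrays, 45037 probe sets). The deposited values are log2 intensities; the submitters' processing notes name RMA and the Affymetrix program Expression Console, version 1.1; RMA includes background correction and quantile normalization, and whether the platforms were normalized apart is not given in the sources used here. The platforms were never compared in one test.

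Probe sets were named from the platform annotation, and those with 1 gene symbol were kept (23521 at 48 h and 28898 at 72 h; 1814 and 551 had several, 16010 and 15588 none); the brightest probe set stood for a gene, with no filter on dim genes. All groups of a platform entered 1 fit in limma 3.58.1 (R 4.3.3; lmFit, eBayes with intensity trend), two-sided, with Benjamini-Hochberg adjustment over all genes of the platform and calls at an adjusted p under 0.05; SE is the moderated standard error. The same code was also run on simulated data with independent noise for each array. That setting lacks the shared deviations between arrays described below, so it does not bear on them. Promoter windows came from RefSeq and figures from Python 3.11.15 with matplotlib 3.10.9.

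The number of arrays limits the precision, and no 2 arrays held identical values (correlations of 0.884 to 0.990 at 48 h and 0.866 to 0.995 at 72 h). Same-numbered arrays deviated together, with every correlation of their deviations above 0.1, only for low arginine against low leucine with OVA (0.294 to 0.39) and for pretreated against untreated macrophages at 72 h (0.16 to 0.261); this comes from the data, since no label says what a number marks. Alternatives were arrays centred on their medians over the genes tested, quantile normalization, the mean of probe sets and dim genes left out. Further ones were each array left out, the replicate number as a block and the run of submitter identifiers as a block. Between low and full medium the run was fitted as a random effect, since no run holds both.

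The members, the pathway lists and the marker lists were chosen with earlier results of these data known. All members were named in the comparisons described; from each pathway list, up to 4 called genes of largest change in a comparison could be named, and for likeness the 3 closest genes to each member by Pearson correlation.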

Additional observations from a re-analysis of the deposited data

Results flagged for a closer look

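The effect of OVA differed between low arginine, leucine and lysine at 48 h for Nupr1 (moderated F = 21.45, limma adjusted p = 0.0156) and Cebpg (F = 17.63, adjusted p = 0.0297), where the rise was larger in low arginine than in low lysine; the differences between low arginine and low leucine did not pass (0.495 and 0.134, limma). OVA went with lower levels at 72 h in full medium for Cebpb (-2.31), Jdp2 (-2.21), Atf5 (-1.37) and Nupr1 (-1.10), while within each low medium at 48 h every array with OVA was higher than every array without for Cebpb, Nupr1 and Jdp2, and in low arginine and leucine for Atf5. This contrast of direction was not tested, since medium, time and platform differ together. The make-up of the samples differed too. At 72 h the mesothelial and stromal list stood at 10.58 without OVA and 4.56 with it. In low arginine at 48 h it stood at 6.53 and 5.82, in low leucine at 6.65 and 5.72, and in low lysine at 6.13 and 5.77. The part of these transcripts in the contrast was not tested. Jdp2 in low lysine, one of these 48 h differences, did not pass its own test (adjusted p = 0.0991, limma), though it did with arrays centred (0.0308) and under quantile normalization (0.0157).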

How the results depend on the processing

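No called difference of a member changed sign under any alternative; some that missed the threshold did, among them Ppp1r15a with OVA in low arginine (-0.16 under quantile normalization) and Atf3 with OVA at 72 h (0.33 with arrays centred). The calls of Ddit3, Trib3, Atf3 and Nupr1 against full medium at 48 h held in all 12 alternatives of each of the 4 conditions, and those of Atf5 in all but 1. For the low media these include the identifier run as a random effect, with a correlation of 0.0174 within a run. As no run holds both low and full medium, that alternative cannot separate the run from the medium. The count of members called in low leucine against low lysine fell from 2 to 0 under quantile normalization, that of pretreated macrophages against low leucine went from 0 to 1 (Cebpg), that of low lysine against full medium from 5 to 7 (Cebpg and Ppp1r15a added), and that of the interaction from 2 to 1 with arrays centred and with the identifier run as a block. With arrays centred, the count for low leucine against full medium fell from 7 to 5 (Cebpg and Ppp1r15a lost). Over single-array omissions the counts ran from 6 to 7 for pretreated macrophages at 48 h, 7 to 8 for low arginine, 5 to 6 for low leucine (7 with all arrays) and 5 to 6 for low lysine. They ran from 1 to 2 for low arginine against low leucine (3 with all arrays), 3 to 4 against low lysine, 1 to 2 for low leucine against low lysine, 8 to 9, 10 to 10 and 8 to 9 for OVA in low arginine, leucine and lysine, and 0 to 2 for the interaction. For pretreated macrophages against low arginine, leucine and lysine they ran from 2 to 2, 0 to 0 and 1 to 3, and for the low media without OVA from 0 to 0. At 72 h they ran from 7 to 8 for OVA, 7 to 9 for pretreatment and 8 to 9 for pretreated macrophages against no OVA. Where a lone array remained, it was assumed to vary like the other groups. The causes of these changes were not tested. In the omissions, having fewer arrays and lacking that particular array cannot be told apart.

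The replicate number as a block left 197 of 200 member results on their side of the threshold; beside Ppp1r15a with pretreated macrophages at 72 h, it moved Jdp2 (adjusted p = 0.0604) and Ppp1r15a (0.0217) of pretreated macrophages against no OVA, where the pairing is not borne out. Counts over all genes moved more. With arrays centred, genes called went from 6527 to 12819 for OVA at 72 h, from 5557 to 12195 for pretreated macrophages against no OVA, from 158 to 95 for low arginine against low leucine and from 33 to 21 for the interaction. Under quantile normalization they went from 1936 to 1234 for low lysine against full medium, from 416 to 190 for low leucine against low lysine and to 87 for the interaction; with dim genes left out the latter pair gave 628 and 56, and with the replicate block low leucine against low lysine gave 638. Single-array omissions took these counts to between 1148 and 2111 for pretreated macrophages at 48 h (1916 with all arrays), 577 and 710 for low arginine (1036), 339 and 401 for low leucine (603), 903 and 3183 for low lysine (1936), 48 and 78 for low arginine against low leucine (158), 329 and 1021 against low lysine (715), 84 and 1414 for low leucine against low lysine (416), 383 and 796, 689 and 1428, and 518 and 945 for pretreated macrophages against low arginine, leucine and lysine (748, 1314 and 784), 3857 and 5543 for OVA in low arginine (6517), 495 and 2225 for pretreatment at 72 h (1656) and 8 and 218 for the interaction (33). The shares of all genes given beside the member counts move with these counts. The share of calls that were upward went under quantile normalization from 31.3% to 49.2% for pretreated macrophages at 48 h, from 32.2% to 48.8%, 42.5% to 52.6% and 28.6% to 45.2% for low arginine, leucine and lysine (18.4% for lysine with arrays centred), from 32.9% to 48%, 82.1% to 64.1% and 84.6% to 64.7% for the pairs of low media, and from 41.4% to 55.6% and 78.6% to 65.7% for pretreated macrophages against low leucine and low lysine. With arrays centred it went from 58.5% to 83%, 52.7% to 75.9% and 59.4% to 79% for OVA in low arginine, leucine and lysine (49.1% for lysine under quantile normalization), from 54.3% to 86% for OVA at 72 h and from 52% to 85.6% for pretreated macrophages against no OVA. The number of arrays limits the precision.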
